A study of Mus musculus with 6 samples.

Results

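Nidogens, laminins and the basement membrane proteoglycans perlecan and agrin were followed in the hippocampus of control and IκBα-deficient mice. The members are 10 genes (Nid1, Nid2, Lama2, Lama4, Lama5, Lamb1, Lamb2, Lamc1, Hspg2 and Agrn), and they were read through 21 of the 45037 probe sets tested, taking every probe set whose only gene symbol is one of these names. The genes were chosen by name as a protein family after results of this same contrast were known, in which Nid2 stood among the smallest p-values. Their differences between genotypes are therefore descriptions and support nothing by themselves. The 3 control animals carried IκBα fl/-, that is 1 floxed and 1 null allele of the inhibitor gene Nfkbia, and the 3 IκBα-deficient animals carried IκBα fl/- with Nestin-Cre. All 6 animals were 2 to 3 months old, and both genotypes carried the null allele. Only the deficient animals are given as carrying Nestin-Cre, so its presence and the loss of IκBα cannot be told apart. Nestin-Cre acts in neural stem cells and their progeny, so cells outside that lineage in the same tissue are not targeted by design. Values are RMA values on the log2 scale, which are relative levels within a probe set, and differences are deficient minus control.

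Basement membranes are thin sheets of extracellular matrix around vessels, below the pia and under epithelia. In them laminin trimers of an alpha, a beta and a gamma chain and a network of type IV collagen lie together, nidogens link both networks, and the heparan sulfate proteoglycans perlecan (Hspg2) and agrin (Agrn) bind to laminin. In the brain, endothelial cells, pericytes and astrocyte endfeet meet at such a sheet, and meninges and choroid plexus carry their own.

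Across the family, Nid2 was set apart between the genotypes, Nid1 was high on 1 deficient array, Lama2 and Lama4 were separated by small amounts, and the brightest probe sets of Lama5, Lamb1, Lamb2, Lamc1, Hspg2 and Agrn overlapped between genotypes. None of the 21 probe sets passed an adjusted p under 0.05 in the limma fit over all probe sets (Benjamini-Hochberg, adjusted p 0.914 to 1.00), where 0.00666% of all probe sets passed. At an unadjusted p under 0.05, 2 member probe sets (of Nid2 and Lamb1) were higher, with 2.15% of all probe sets higher at that limit, and 0 were lower, with 1.19% of all lower. The 3 deficient arrays lay above all 3 controls in 5 of the 21 probe sets and below them in 0, while over all probe sets these shares were 4.76% and 3.68%. Differences were positive in 15 of the 21, against 49.8% of all probe sets, and their median was 0.06, against -0.0005 over all. Since the contrast had been seen before the genes were picked, nothing is read from these shares. Whole tissue was measured, so more cells of a type and more RNA per cell cannot be told apart.

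**Figure D1:**
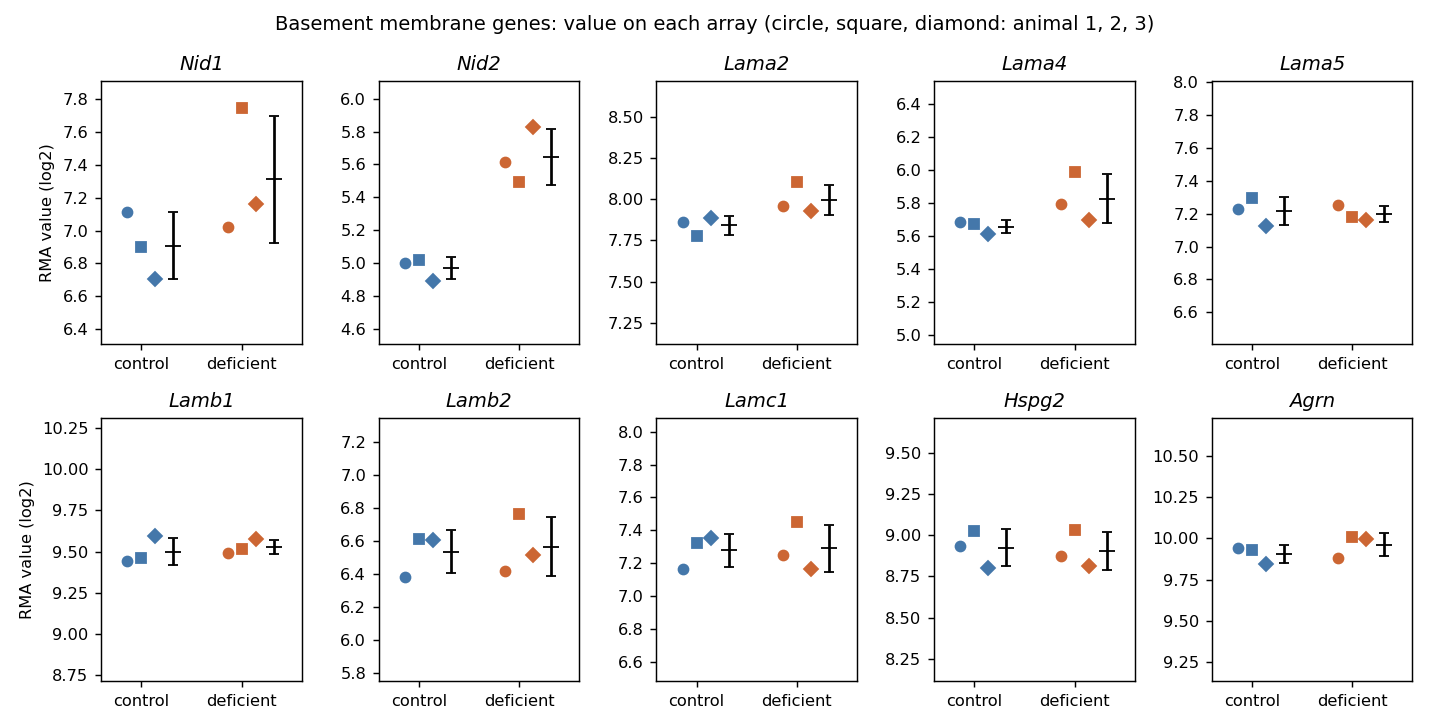
RMA value (log2) of the brightest probe set of each gene on each array, with control animals in blue, IκBα-deficient animals in orange, and mean ± SD (n = 3) in black. Each panel spans the same range around its own mean. The groups are apart in Nid2, Lama2 and Lama4 and overlap in the other 7 genes.

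The arrays themselves were close, with medians of 6.08 to 6.12 and correlations across probe sets of 0.992 to 0.998. The targeted gene Nfkbia was lower on every deficient array in 4 of its 5 probe sets, and 3 of these were the only probe sets that passed (differences of -1.83 to -1.74). Whether those probes lie in the deleted part is not known from the labels. Among all probe sets by mean level, the astrocyte markers lay at the 89.0th to 99.9th percentile and the hippocampal neuron markers at the 58.0th to 99.9th. 2 arrays stood apart. Deficient array 2 had a mean gap of 2.02 between 3′ and 5′ control probe sets, beside 0.56 to 0.73 on the other 5, and the highest mean of the meninges markers. Control array 1 had a choroid plexus marker mean of 7.74, beside 5.70 and 5.76 in the other controls and 7.60 to 8.52 in deficient animals.

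Nid2, nidogen-2, is the second of the pair of nidogens and binds laminin and type IV collagen. Its only probe set (1423516_a_at) was at 4.9997, 5.02 and 4.89 in controls and at 5.61, 5.49 and 5.83 in deficient animals. Every deficient array lay above every control array, and the spread within either group was small beside the gap. The means were 4.97 ± 0.07 and 5.64 ± 0.17 (SD, n = 3), a difference of 0.67 ± 0.10 (SE) or 1.59-fold, with a limma adjusted p of 0.914 and a range of 0.409 to 1.00 over the alternatives. The probe set is dim, at the 38.8th percentile of all probe sets by mean level. Among the 4503 probe sets of like level, 9 had a larger difference.

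The Nid2 value is set here beside the measures of the arrays that stood apart. Control array 1, with a choroid plexus mean inside the deficient range, had a Nid2 value between those of the other controls. Deficient array 2, with the widest 3′ to 5′ gap, had the lowest Nid2 value of the deficient animals at 5.49. With 1 array left out the difference ranged from 0.58 (without deficient array 3) to 0.75 (without deficient array 2). Without both control array 1 and deficient array 2 it was 0.76. With the choroid plexus marker mean as a covariate it was 0.68 ± 0.16 (SE). It was 0.74 ± 0.11 with the meninges mean, 0.64 ± 0.12 with the endothelial mean and 0.75 ± 0.09 with the 3′ to 5′ gap. The part of tissue makeup or RNA quality in the Nid2 difference was not tested beyond these values.

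Nid1, nidogen-1, the abundant nidogen of most basement membranes, was read by 3 probe sets. The brightest (1416808_at) was at 7.12, 6.90 and 6.71 in controls and at 7.02, 7.75 and 7.16 in deficient animals. The groups overlapped, since deficient array 1 lay below control array 1, and deficient array 2 stood well above all others. The difference was 0.40 ± 0.19 (SE). It was 0.10 with the meninges covariate and 0.19 with the 3′ to 5′ gap as a covariate. With the choroid plexus covariate it was 0.24 and with the endothelial one 0.25. Without both arrays that stood apart it was 0.29 ± 0.11 (SE). With 1 array left out it ranged from 0.55 without deficient array 1 to 0.19 without deficient array 2. That array had the 3′ to 5′ gap of 2.02 and also the highest meninges mean, 8.61 beside 7.42 and 7.45 in the other deficient animals and 6.85 to 7.53 in controls, and the part of either in the Nid1 value was not tested further. The other probe sets of Nid1 were dim, and their groups overlapped. Probe set 1448469_at was at 4.62 ± 0.08 against 4.58 ± 0.15, and 1441519_at at 3.40 ± 0.05 against 3.44 ± 0.12 (control against deficient, SD, n = 3).

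**Figure D2:**
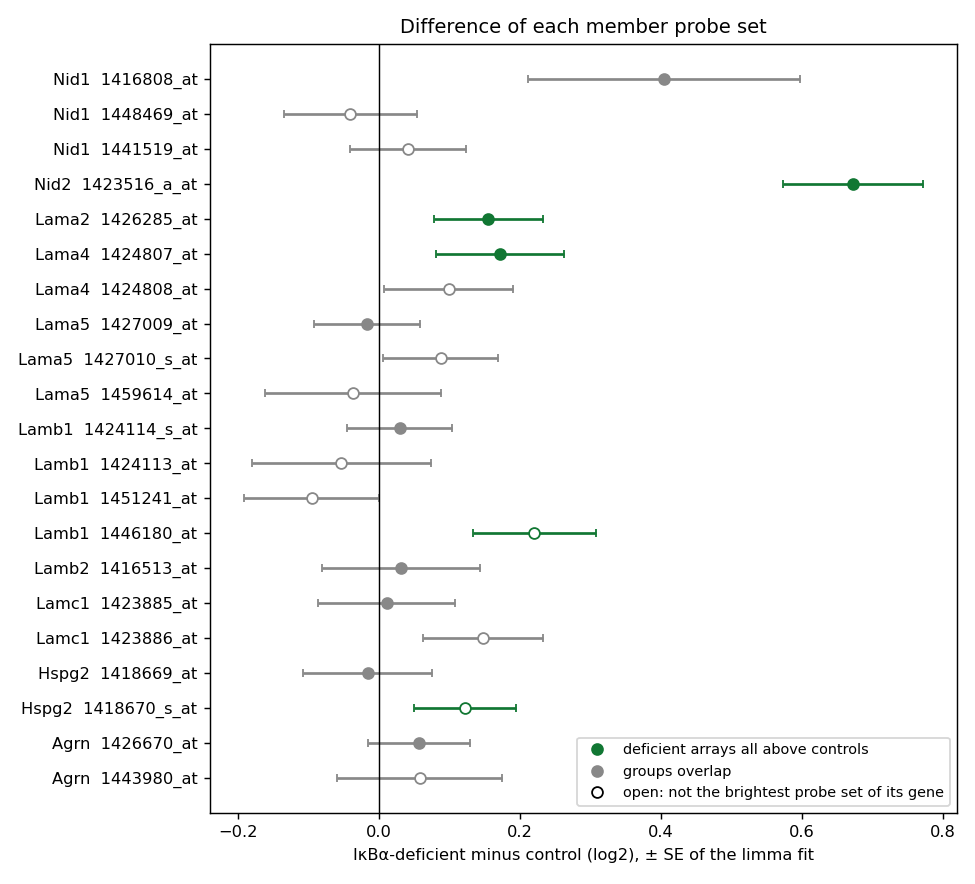
Difference between IκBα-deficient and control arrays (log2) for each of the 21 member probe sets, with the SE of the limma fit (n = 3 per group). Filled points are the brightest probe set of a gene and green points are those whose deficient arrays all lie above the controls. Nid2 (0.67) and the brightest Nid1 probe set (0.40) lie farthest to the right, and the others lie between -0.10 and 0.22.

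Of the laminin alpha chains, which carry the sites for cell receptors, Lama2 and Lama4 were separated between genotypes by small amounts. Lama2, the alpha-2 chain made by pericytes and astrocytes and bound by dystroglycan, was at 7.86, 7.78 and 7.89 in controls and at 7.96, 8.10 and 7.93 in deficient animals. The lowest deficient value was above the highest control by less than the spread within a group. The difference was 0.16 ± 0.08 (SE), or 1.11-fold, and 0.10 without deficient array 2. Lama4, the alpha-4 chain of endothelial basement membranes, was at 5.68, 5.67 and 5.61 in controls and at 5.80, 5.99 and 5.70 in deficient animals on its brightest probe set (1424807_at). These groups also just separated, by 0.17 ± 0.09 (SE), and the difference was 0.09 without deficient array 2 and 0.06 with the meninges covariate. The second Lama4 probe set, 1424808_at, was among the dimmest of the members and overlapped, at 3.68 ± 0.04 against 3.78 ± 0.15 (SD, n = 3).

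Lama5, the alpha-5 chain found in mature vessel walls and epithelial sheets, gave no steady sign. Its brightest probe set (1427009_at) was at 7.23, 7.29 and 7.12 in controls and at 7.25, 7.18 and 7.16 in deficient animals. All 3 deficient values lay inside the control range. The difference was -0.02, with an unadjusted 95% interval of -0.19 to 0.16. Probe set 1427010_s_at was at 5.82 ± 0.04 against 5.91 ± 0.12 and 1459614_at at 3.82 ± 0.04 against 3.78 ± 0.25 (control against deficient, SD, n = 3).

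Promoter letters were taken from RefSeq (build GRCm38.p6) for 7 members, in 8 windows of 250 bases before the start, and not for Nid2, Lama4 and Lamc1. The windows of Nid1 and Lama2 are shown, as the nidogen and the alpha chain that follow Nid2 in size of difference among members with a window. IκBα holds back NF-κB, so letters like its site were searched, GGG and CC with any 5 bases between them, on both strands, and matches are in capitals. In Nid1 the matches overlap each other and a GGGCGG box.
Nid1, chr13:13437352-13437601, plus strand: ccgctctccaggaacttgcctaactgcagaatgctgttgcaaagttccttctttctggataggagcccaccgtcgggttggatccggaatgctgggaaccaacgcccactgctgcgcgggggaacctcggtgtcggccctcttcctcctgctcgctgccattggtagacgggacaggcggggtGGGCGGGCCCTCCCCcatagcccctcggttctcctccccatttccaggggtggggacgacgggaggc
Lama2, chr10:27616943-27617192, minus strand: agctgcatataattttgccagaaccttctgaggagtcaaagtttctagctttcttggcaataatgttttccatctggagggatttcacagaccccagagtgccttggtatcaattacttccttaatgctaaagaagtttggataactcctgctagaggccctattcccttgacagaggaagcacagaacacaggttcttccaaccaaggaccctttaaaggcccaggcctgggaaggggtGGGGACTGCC
The Nid1 window has 64.4% G and C and 3 overlapping matches. The Lama2 window has 47.2% G and C and 1 match, which begins 10 bases before the start. Of the 8 member windows 7 held a match, while 45.8% of all 32851 promoter windows of this length did. The member windows ranged from 43.6% to 83.6% G and C, beside a median of 52.4% over all windows. The part of base composition in the count was not tested. A match is only a run of letters and not a site shown to be bound.

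The beta and gamma chains, which complete the laminin trimer, were level on their brightest probe sets. Lamb1, the beta-1 chain, was at 9.44, 9.46 and 9.59 in controls and at 9.49, 9.52 and 9.58 in deficient animals (1424114_s_at), a difference of 0.03 with an interval of -0.14 to 0.20. The deficient values lay within the control range. The 3 other Lamb1 probe sets disagreed in sign. Probe sets 1424113_at (7.30 against 7.25) and 1451241_at (5.41 against 5.31) were lower in deficient animals by 0.05 and 0.10 without separation. The dim 1446180_at was at 4.15, 4.04 and 3.90 in controls and at 4.32, 4.18 and 4.25 in deficient animals. It was wholly higher, by 0.22 ± 0.09 (SE), in contrast to the brighter probe sets of the same gene, and by 0.07 with the choroid plexus covariate.

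Lamb2, the beta-2 chain of vessel and synaptic basement membranes, was at 6.38, 6.61 and 6.61 in controls and at 6.42, 6.77 and 6.51 in deficient animals. Array 1 was the lowest of each genotype, and the groups overlapped. The difference was 0.03 with an interval of -0.23 to 0.29. Lamc1, the gamma-1 chain that most laminins share, was at 7.17, 7.32 and 7.35 in controls and at 7.25, 7.45 and 7.17 in deficient animals (1423885_at). The difference was 0.01 with an interval of -0.22 to 0.24. Its dimmer probe set 1423886_at was at 4.75 ± 0.09 against 4.90 ± 0.10 (SD, n = 3), and the groups overlapped there as well. The difference was -0.07 for Lamb2 and -0.07 for Lamc1 without deficient array 2, and -0.04 and -0.05 without control array 1.

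Hspg2, the core protein of perlecan, was at 8.94, 9.03 and 8.80 in controls and at 8.87, 9.03 and 8.81 in deficient animals on its brightest probe set (1418669_at). Both sets of values nearly coincided, with a difference of -0.02 and an interval of -0.23 to 0.20. The second Hspg2 probe set (1418670_s_at) was at 6.48, 6.48 and 6.36 in controls and at 6.52, 6.62 and 6.54 in deficient animals, wholly higher by 0.12 ± 0.07 (SE). So the 2 probe sets of perlecan differed in sign.

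Agrn encodes agrin, which clusters receptors at the nerve-muscle synapse through Lrp4 and lies at astrocyte endfeet in the brain. Its brightest probe set (1426670_at) was at 9.94, 9.93 and 9.85 in controls and at 9.88, 10.01 and 9.995 in deficient animals. Deficient arrays 2 and 3 were above all controls and deficient array 1 was not. The difference was 0.06 with an interval of -0.11 to 0.23. Probe set 1443980_at was dim, at 4.63 ± 0.18 against 4.68 ± 0.15 (SD, n = 3).

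**Figure D3:**
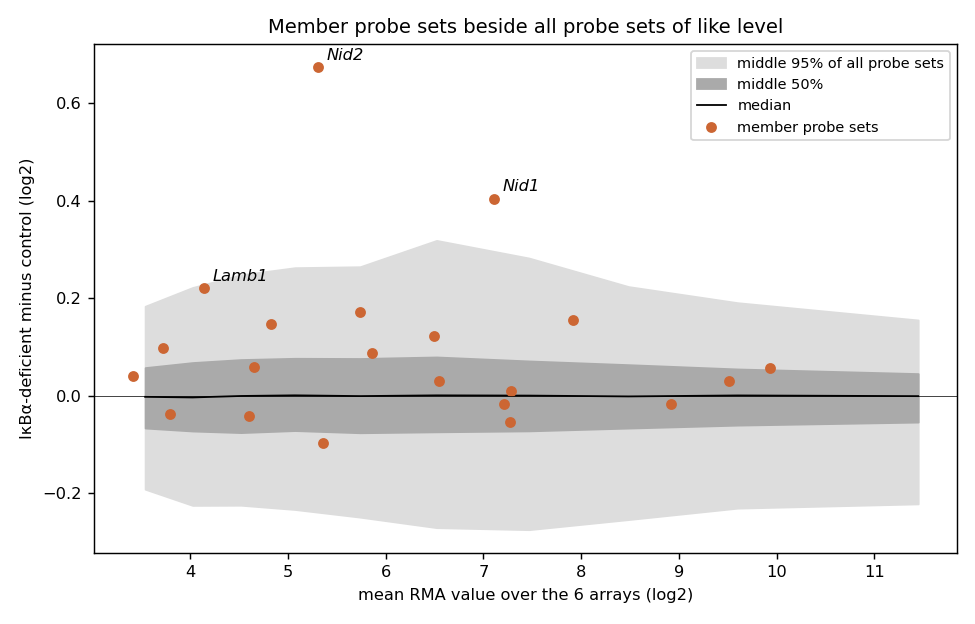
Difference between genotypes (log2) against mean level (log2) for the 21 member probe sets (points), over the range of all probe sets in 10 classes of level (dark band, middle 50%; light band, middle 95%). The brightest Nid1 probe set and Nid2 lie above the light band, the dim Lamb1 probe set at 0.22 lies at its edge, and the others are inside it.

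By level, 9 of the 21 probe sets were among the lowest 40% of all probe sets, that of Nid2 included, and 12 were above. Among genes with several probe sets, Lama4 and Agrn had the same sign in all of theirs, while Nid1, Lama5, Lamb1 and Hspg2 had both signs. Both Lamc1 probe sets were positive. Several of these differences are smaller than their SE, so opposite signs alone do not show that the probe sets of a gene disagree.

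Deficient array 2 was the highest of the 6 arrays in 10 of the 21 probe sets, deficient array 1 in 5, deficient array 3 in 2 and control arrays in 4 in all. Control array 3 was the lowest in 10. The share of all probe sets highest or lowest on each array was not counted. So these counts are not read as a trait of the members. Averaged over the 10 genes by their brightest probe sets, and relative to the control mean, the deficient arrays stood at 0.08, 0.26 and 0.11. The excess of array 2 came with high pericyte and smooth muscle markers as well, 8.24 beside 7.81 and 7.82 in the other deficient animals. Nid2 was the exception among the separated genes, with array 2 the lowest of the deficient animals.

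**Figure D4:**
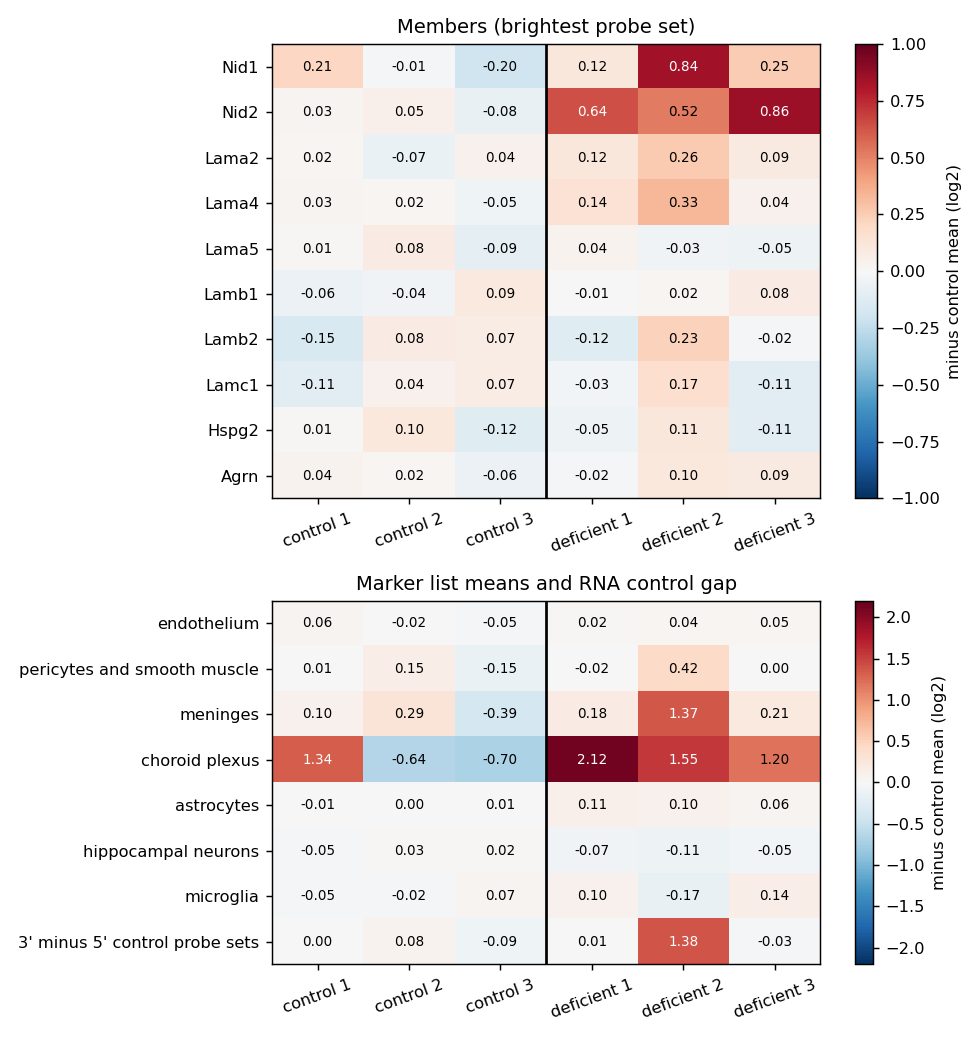
Value on each array minus the control mean (log2) for the 10 members (top) and for the means of the marker lists and the 3′ to 5′ gap of control probe sets (bottom), on separate colour scales. Nid2 is higher on all 3 deficient arrays. By contrast, 7 of the 10 members (Nid1, Lama2, Lama4, Lamb2, Lamc1, Hspg2 and Agrn) are highest on deficient array 2. That array has the widest gap and the highest meninges mean, and the share of all genes highest on it was not counted.

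Cells that carry basement membranes were followed with marker lists, none of which is a listed zero, since RMA gives every probe set a value. All 14 meninges markers were higher in deficient animals, with a median of 0.54, and list means of 6.85 to 7.53 in controls and 7.42 to 8.61 in deficient animals. Relative to the control mean the list stood at 0.18, 1.37 and 0.21 on the deficient arrays. By list mean, deficient arrays 1 and 3 thus lay inside the control range, and the median was 0.16 without deficient array 2. Of the 14 markers 4 were wholly higher and 0 wholly lower, beside 5.94% and 3.82% of all genes. Igf2, a growth factor of meninges and choroid plexus, differed by 1.22 ± 0.30 (SE) and by 0.75 with the meninges covariate, of which it is itself a part. Col1a1 differed by 0.07, and by 0.0048 without deficient array 2. All 12 choroid plexus markers were higher, with a median of 1.41 and list means of 5.70 to 7.74 against 7.60 to 8.52. Clic6, a chloride channel protein, differed by 3.01 and overlapped. Without control array 1 it passed the test, with a difference of 4.30 and a limma adjusted p of 0.0219, which ran to 1.00 under other alternatives. With the choroid plexus covariate the Clic6 difference was 0.08, but Clic6 is itself part of that covariate, so a fall is partly built in. Tmem72 differed by 0.09, and by 0.0043 without deficient array 1. Of 11 pericyte and smooth muscle markers 10 were higher, with a median of 0.06 and means of 7.67 to 7.97 against 7.81 to 8.24. On the deficient arrays that list stood at -0.02, 0.42 and 0.00225 relative to controls, and its median was -0.09 without deficient array 2 and -0.01 without control array 3. The pericyte receptor Pdgfrb differed by 0.39, by 0.19 without deficient array 2 and by 0.11 with the meninges covariate. Cspg4 differed by -0.10, and by -0.06 without control array 2. Of 11 endothelial markers 7 were higher, with a median of 0.009 and means of 7.67 to 7.78 against 7.73 to 7.77. The endothelial receptor Kdr differed by 0.24, and by 0.14 with the choroid plexus covariate. The adhesion molecule Pecam1 differed by -0.19, and by -0.05 without deficient array 2. The part of these lists in the members' values was not tested beyond the covariates given above and below.

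Markers of brain parenchyma lay on both sides of 0. Of 7 astrocyte markers 4 were higher, with a median of 0.01, and 2 were wholly higher and 2 wholly lower. Of all genes 5.94% were wholly higher and 3.82% wholly lower. Aqp4, the endfoot water channel, was wholly higher, at 11.41 ± 0.04 against 11.86 ± 0.11, as was Gfap, by 0.30. The glutamate transporter Slc1a2 was wholly lower by 0.11, as was Aldoc, by 0.06. Of 10 hippocampal neuron markers 4 were higher, with a median of -0.07, and 0 were wholly higher and 3 wholly lower. The median was -0.08 to -0.03 with 1 array left out. Differences ran from Tdo2 (-0.38, and -0.12 with the choroid plexus covariate) to Neurod6 (0.24, and 0.13 without both arrays that stood apart). Of 5 microglia markers 3 were higher, with a median of 0.11, from P2ry12 (-0.15) to Aif1 (0.13), which were at 0.20 and 0.23 without deficient array 2. None of the 70 marker genes passed an adjusted p under 0.05 (limma), and over all 18193 genes with 1 probe set each 0% passed. At an unadjusted p under 0.05, 20 markers were higher, 11 of them of choroid plexus, and 1 was lower, where 2.61% of all genes were higher and 1.06% lower.

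The partners of the members were read from gene lists, with the brightest probe set for each gene. Beside the shares at the unadjusted threshold, 5.94% of all genes were wholly higher and 3.82% wholly lower, and 52.6% had a positive difference. No gene of the 6 lists passed the adjusted threshold, and 5 were higher and 1 lower at the unadjusted one. Among 8 basement membrane collagens 6 were higher, with a median of 0.08, and 1 had an unadjusted p under 0.05. Type IV collagen chains Col4a1 (8.89 against 8.85) and Col4a2 (7.85 against 7.78), the partners that nidogens link to laminin, overlapped. Col15a1 was at 5.64, 5.65 and 5.65 in controls and at 5.83, 5.86 and 5.75 in deficient animals, wholly higher by 0.17. Col4a5 differed by 0.48 ± 0.23 (SE), with deficient array 2 at 6.98 beside 6.29 and 6.08, by 0.22 without that array and by 0.09 with the meninges covariate.

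The laminin chains outside the family read here, with the related netrin Ntn4, were higher in 3 of 5 measured genes, with a median of 0.02 and 0 at an unadjusted p under 0.05 in limma. Lama1, the alpha-1 chain of the pial basement membrane, differed by 0.34, by 0.21 without deficient array 2, by 0.13 with the meninges covariate and by 0.06 with the choroid plexus one. Ntn4 differed by 0.12, by 0.05 without deficient array 2 and by 0.0039 with the meninges covariate. Both overlapped between genotypes. Of 16 other basement membrane proteins 9 were higher, with a median of 0.01, and 1 was higher at that limit. This was Frem2, of the FRAS and FREM matrix proteins, at 5.45, 5.69 and 5.67 in controls and at 5.91, 6.13 and 5.92 in deficient animals. It differed by 0.39, and by 0.24 without both arrays that stood apart. Npnt, nephronectin, a ligand of integrins, was wholly lower by 0.28, although deficient array 1 and control array 1 were both at 8.61. Deficient array 2 was the lowest at 8.24, and the difference was -0.16 without it and -0.12 with the meninges covariate.

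Among 11 receptors listed for laminin and agrin, with the collagen receptor Ddr1 among them, 7 were higher, with a median of 0.04. Here 3 were wholly higher and 1 wholly lower, and 2 were higher and 1 lower at an unadjusted p under 0.05 (limma). Ddr1, higher by 0.22, counted among those wholly higher and among those higher at that limit. Lrp4, the agrin receptor, was at 8.67, 8.60 and 8.64 in controls and at 8.91, 8.97 and 9.08 in deficient animals. These groups were well apart, by 0.35 ± 0.07 (SE) or 1.27-fold, with an adjusted p of 1.00 (limma). The difference was 0.35 with the choroid plexus covariate and 0.36 with the meninges covariate. Itga7, an integrin alpha chain that binds laminin, was at 7.11, 7.09 and 7.06 in controls and at 6.70, 6.73 and 7.01 in deficient animals, lower by 0.27. Dystroglycan itself, Dag1, was level at 10.70 against 10.74.

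Of 3 measured enzymes that glycosylate dystroglycan 2 were higher, with a median of 0.09, Pomt1 at 7.02 against 7.11 and Pomgnt1 at 9.36 against 9.44. Without control array 2 these differences were 0.05 and 0.05. Of 9 measured genes that build or edit heparan sulfate, the chain carried by perlecan and agrin, 4 were higher and the median was -0.01. Sulf1, an extracellular sulfatase, was at 7.66, 6.32 and 6.41 in controls and at 8.36, 8.16 and 7.83 in deficient animals. Control array 1, the control with high choroid plexus markers, was also the one control near the deficient values, and the difference of 1.32 ± 0.34 (SE) had an adjusted p of 1.00 (limma). With the choroid plexus covariate the Sulf1 difference was 0.30 ± 0.13 (SE). B3gat3, which helps make the linker of the chain, differed by -0.19, with deficient array 2 alone low at 9.60, and by -0.02 without that array. With 1 array left out, the list median ranged from -0.01 to 0.13 for the other laminin chains, 0.03 to 0.16 for the collagens, -0.07 to 0.07 for the other basement membrane proteins, 0.01 to 0.05 for the receptors, 0.05 to 0.12 for dystroglycan glycosylation and -0.02 to 0.02 for heparan sulfate.

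Of 18183 genes outside the family, the 5 whose brightest probe set followed Nid2 most closely over the 6 arrays were F2rl3 (Pearson r = 0.997), 4930534D22Rik (0.978), Usp32 (0.971), Lbh (0.969) and Txndc9 (0.968). Each had the same order of groups as Nid2, and they share the 6 arrays with it, so r is a description with no test. F2rl3, a thrombin receptor, is dim (4.23 against 4.38) and Lbh was at 7.12 against 7.55. None of the 5 codes for a basement membrane protein.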

How the data were processed

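Hippocampal total RNA of 6 mice (3 per genotype) was measured on Affymetrix arrays. The deposited values are on the log2 scale and were the authors' RMA output according to the submitters' processing notes. RMA's version, the probe annotation and any build: not given in the sources used here. Quantile normalization hides a change shared by most genes. Arrays give no read depth, so precision is limited by their number. Of 45101 probe sets, 64 control probe sets were left out, 34945 had 1 symbol in GEO's annotation of the platform (possibly outdated), 932 had several and 9160 none named here. By Entrez identifier 34754 matched RefSeq and 0 symbols were updated.

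All 45037 probe sets were fitted with limma 3.58.1 in R 4.3.3 (lmFit, eBayes, two-sided, genotype only), with Benjamini-Hochberg adjustment over all of them and a threshold of 0.05. SE and 95% intervals come from this fit. Where a gene is represented once, its brightest probe set by mean over the 6 arrays was used. The text names all members, the 2 genes of smallest p in each partner list, the highest and lowest difference of each marker list, and the 5 genes nearest to Nid2. Col4a1, Col4a2, Dag1, Ddr1, Gfap and Aldoc were named after their values were seen. The members and lists were chosen with earlier results of these data known. The fit was tested on simulated data with independent noise, so that test cannot speak to effects shared across an array. Repeat numbers in the labels are shared between genotypes. Deviations from group means of same-numbered arrays correlated at -0.004, 0.27 and 0.03 across probe sets. Differently numbered arrays gave -0.33 to 0.29. Deviations within a group sum to 0, which ties these values to each other, so they decide little. The labels do not say that a number marks a pair, and the numbers were not taken as pairs. The labels call the arrays biological repeats. Figures were drawn with matplotlib 3.10.9.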

Additional observations from a re-analysis of the deposited data

How the results depend on the processing

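No member probe set passed under any of the alternatives run. With the repeat number as a block (replicate block), 0 member probe sets and 2 of all probe sets passed, and Nid2 differed by 0.67 ± 0.11 (SE). The count of all probe sets that passed was 3, and 1 to 8 when 1 array was left out (8 without control array 1, and 1 without control array 3 or deficient array 2). It was 0 with 1 probe set per gene, without moderation, with the choroid plexus covariate and without both arrays that stood apart. It was 1 without probe sets of suffix _s_at, _x_at or _a_at, and 1 with the meninges, endothelium or 3′ to 5′ gap covariate. The gap covariate, the fit without both arrays and all alternatives for genes outside the family were chosen after seeing the data. Wholly higher member probe sets numbered 5 to 8 with 1 array left out (8 without deficient array 3) and 8 without both arrays. They numbered 3 with dim probe sets left out and 3 with 1 probe set per gene. Without probe sets of suffix _s_at, _x_at or _a_at (the last is that of Nid2) they numbered 3. Wholly lower ones numbered 0 to 1 with 1 array left out (1 without deficient array 2) and 3 without both. Groups of fewer arrays separate more easily, and the shares over all probe sets in those settings are not given here. Nothing is read from a rise or fall in these counts. The median difference of members was 0.033 (without deficient array 2) to 0.096 (without deficient array 1) with 1 array left out and 0.018 without both.

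Differences of 12 member probe sets near 0 changed sign, and the cause was not tested. With 1 array left out, Lamb2 ranged from -0.069 to 0.105, Hspg2 (1418669_at) from -0.080 to 0.036, Lamc1 (1423885_at) from -0.069 to 0.072, Lamb1 from -0.140 to 0.082 (1424113_at) and -0.00021 to 0.077 (1424114_s_at), and Lama5 from -0.062 to 0.022 (1427009_at) and -0.122 to 0.108 (1459614_at). Nid1 ranged from -0.0049 to 0.108 (1441519_at) and -0.125 to 0.014 (1448469_at), Agrn (1443980_at) from -0.044 to 0.133 and P2ry12 from -0.333 to 0.203. With the meninges covariate Lamb2 was -0.078, Lamc1 -0.070, Lamb1 0.023 (1424113_at) and 0.027 (1451241_at), Lama5 (1427010_s_at) -0.00061, B3gat3 0.0059, Col1a1 -0.028 and P2ry12 0.328. With the choroid plexus covariate Lamb1 (1424113_at) was 0.112, Agrn (1443980_at) -0.033, Nid1 (1448469_at) 0.010, Pomgnt1 -0.048 and Tmem72 -0.054. Col1a1 is itself part of the meninges covariate and Tmem72 of the choroid plexus covariate. With the endothelium covariate Lamb1 (1424113_at) was 0.015, Agrn (1443980_at) -0.068 and Lama5 (1459614_at) 0.015. With array weights Agrn (1443980_at) was -0.019 and P2ry12 0.057. With the gap covariate Lamb2 was -0.065, Lamc1 -0.066 and P2ry12 0.200. Without both arrays Lamb2 was -0.145, Lamc1 -0.126, Nid1 (1441519_at) -0.0054, Pecam1 0.012, Col1a1 -0.033 and P2ry12 0.147.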
